A study of Homo sapiens with 5 samples.

Results

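Forced expression of SALL4 in SNU-387, a human hepatocellular carcinoma line with almost no SALL4 transcript, was compared with SNU-398, a human hepatocellular carcinoma line that expresses it, to find for which genes the overexpressing cells lay nearer to SNU-398 and for which the lines stayed apart. The comparison used 4 of the 5 libraries of the series, with 1 library per group. These were SNU-387 with an empty vector, SNU-387 overexpressing the isoform SALL4A, SNU-387 overexpressing the isoform SALL4B, and SNU-398 labelled as untreated input. The fifth library, SNU-398 with a SALL4 knockdown aimed at both isoforms, entered no distance except as an alternative and is given beside single genes. The 2 isoform libraries were averaged on the log scale, but they are different treatments and not replicates, so each is also given alone, and the empty vector library served only to set the distance before SALL4. All cells were grown in RPMI with 10% FBS, and the one treatment protocol in the labels, lentiviral transduction with puromycin selection, is given for every sample, the untreated one included. The sources used here do not give the promoters of the constructs or say whether the lines were clones or pools. Of 24544 gene symbols, 14313 reached 1 FPKM in at least 1 of the 4 libraries and were compared.

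SALL4 is a zinc finger transcription factor of embryonic stem cells and fetal liver. It is silent in adult hepatocytes and is switched on again in a subset of liver cancers, where it is known as an oncofetal marker. Its main splice forms are the full-length SALL4A and the shorter SALL4B, which share the C-terminal zinc finger cluster that binds AT-rich DNA, and SALL4 recruits the nucleosome remodelling and deacetylase complex, NuRD, to repress genes.

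Distances are differences in log2(FPKM+1), SNU-398 minus SNU-387, so a positive value means a higher level in SNU-398 and a value of 1 is a 2-fold difference on that scale. The added 1 FPKM understates the difference of low genes. SALL4 was listed at 0.117 FPKM with the empty vector, at 23.1 with SALL4A and at 10.4 with SALL4B, against 39.4 FPKM in SNU-398 and 7.45 after knockdown. Both overexpressing libraries were thus above the empty vector and below SNU-398, SALL4A nearer to it than SALL4B. The distance for SALL4, whose locus is chr20:51782331-51802521 on GRCh38, went from 5.18 to 0.74 with SALL4A and 1.83 with SALL4B. The sources used here do not say whether these values count transcripts of the construct as well as of the gene.

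The libraries differed in depth, estimated from the low FPKM steps as 8.87 to 23.6 M fragments in the 4 libraries, so that 1 FPKM of a 2 kb transcript rested on about 17.7 fragments in SALL4B and 47.3 in SALL4A. The characteristics field names SNU-387 as the cell line of every sample, and the titles were followed instead. Log2 levels correlated at 0.932 to 0.977 within a titled line and at 0.829 to 0.857 between the lines, a description over genes that are not independent. Small RNA symbols held 1.84% of the summed FPKM in SNU-398 and 8.52% to 14.4% in the SNU-387 libraries. The knockdown library held 39.3% and was the shallowest of the series at 7.15 M fragments, and the part of both in its levels given below was not tested. Of 7 hepatocyte markers, 4, HNF4A, APOB, TTR and FGB, stayed under 1 FPKM in all 4 libraries. Of the 3 that reached it, ALB was at 0.037 FPKM with the empty vector, listed at 0 with either isoform and at 1.28 in SNU-398. ALB was at least 2-fold higher in SNU-398 than the isoform mean, and the other 2 were at least 2-fold lower. Summed over the 7, the level was 6.58 FPKM with the empty vector, 5.46 with SALL4A, 40.6 with SALL4B and 1.64 in SNU-398. With 1 library per group there is no estimate of error, and every count below is a rule of size with no test. In such bulk libraries fewer cells of a kind and less RNA per cell cannot be told apart.

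Across all genes, SALL4 expression left most of the difference between the lines in place. The median absolute distance to SNU-398 was 0.87 with the empty vector, 0.81 with SALL4A and 0.86 with SALL4B. Genes at least 2-fold apart numbered 6303 with the empty vector, 5942 with SALL4A and 6252 with SALL4B. From the mean of the isoforms, SNU-398 was at least 2-fold higher for 3152 genes, 22% of those compared, and at least 2-fold lower for 2836, 19.8%. The mean of 2 libraries is not like for like with the single empty vector library, so only the single-isoform values bear on the size of this shift. The share of 2-fold differences that were higher in SNU-398 was 52.6% as deposited, 64.2% when upper quartiles were made equal and 65.9% when totals without small RNAs were made equal. These scalings moved the median gene by 0.27 and 0.33.

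A gene was called closer when its absolute distance from the isoform mean was smaller than that of the empty vector by 1 or more and each isoform alone was also nearer, and further by the mirrored rule. Closer genes numbered 351, 2.45% of those compared. Of these, 302 (2.11%) were high in empty vector cells and lower with SALL4, and 49 (0.342%) were low in empty vector cells and higher with SALL4. Further genes numbered 161, 1.12%, with 106 above SNU-398 and 55 below it in the overexpressing cells. This split turned with the scaling, to 66 above and 90 below with equal upper quartiles, and was 101 and 60 with equal totals. The closer and further counts are not on equal terms, because only the 6303 genes that began 2-fold apart could come closer, of which the 351 are 5.57%. The empty vector library enters both distances of each gene, and SNU-398 enters all of them. Another 4304 genes stayed at least 2-fold apart in the same direction in all 3 SNU-387 libraries and moved by less than 1, which is 68.3% of the 6303 and 30.1% of all genes compared. The plot of distance before and after SALL4 shows the 3 classes.

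**Figure D1:**
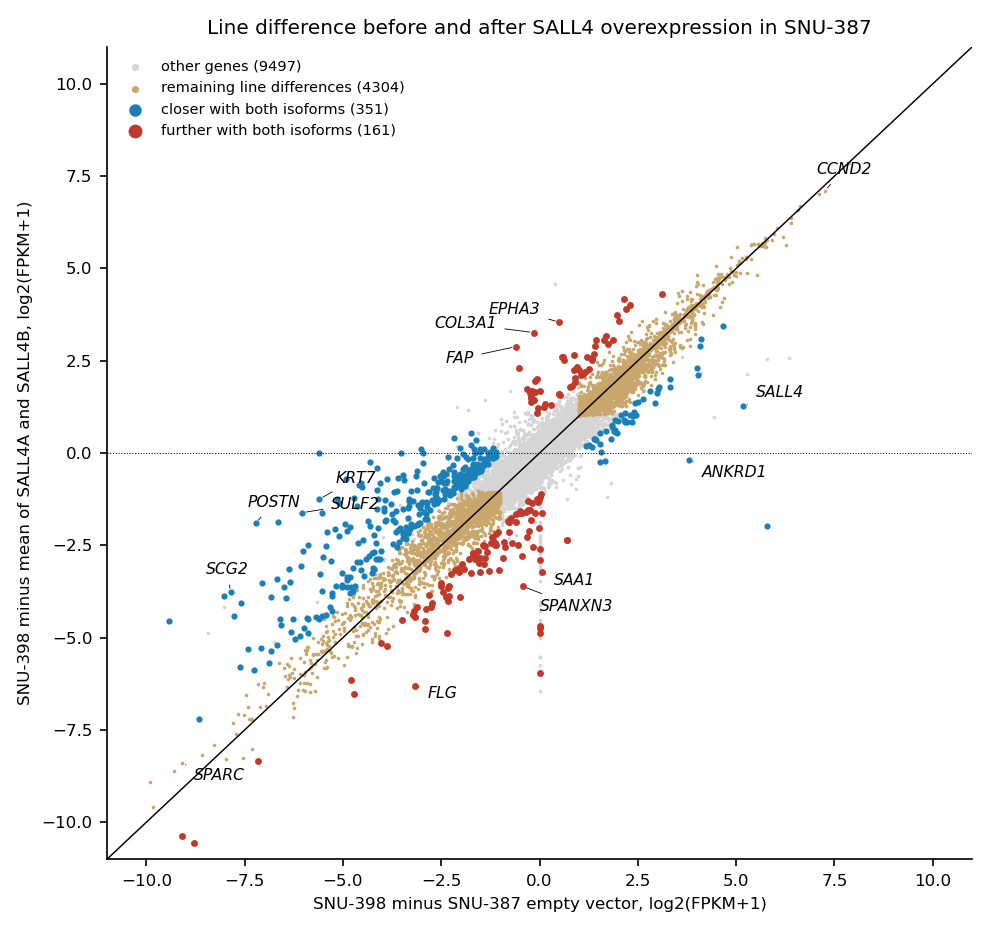
Each point is a gene, with its distance from the empty vector library to SNU-398 on the horizontal axis and from the mean of SALL4A and SALL4B on the vertical axis, both in log2(FPKM+1). Points on the diagonal kept their distance. The 351 closer genes (blue) lie mostly between the diagonal and the dotted zero line, mostly in the lower left where SNU-398 is lower, and the 161 further genes (red) lie on the outer sides.

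Among the 49 genes that came closer from below, 1 of which is SALL4 itself, ANKRD1, a cardiac ankyrin repeat protein known as a target of the YAP and TEAD factors, was the highest-ranked after SALL4. It stood at 0.935 FPKM with the empty vector, 43.4 with SALL4A, 20.4 with SALL4B and 26.0 in SNU-398. The isoforms lay on either side of SNU-398, and the distance went from 3.80 to -0.19. The knockdown library of SNU-398 had 2.69 FPKM, so ANKRD1 was lower in the library with less SALL4 in both lines. PTPN13, a non-receptor tyrosine phosphatase, was at 5.66, 17.8, 16.0 and 25.2 FPKM in the same order and had 20.5 after knockdown. Both isoforms were about equal there and short of SNU-398. SLC7A2, a transporter of cationic amino acids, was at 3.76, 12.8, 12.0 and 23.2 FPKM, GLCCI1 at 0.738, 4.10, 3.41 and 5.14 FPKM, and neither isoform reached SNU-398. FBLN1, a matrix glycoprotein, was at 1.64, 5.52, 5.30 and 20.2 FPKM and still lay 1.73 from SNU-398. The histone gene HIST3H2BB, at 5.45, 21.5, 15.7 and 48.5 FPKM, belongs to a family of near-identical copies, between which reads may be divided. A pair of KRAB-type zinc finger genes of chromosome 19 completed the named set. ZNF675 was at 5.73, 16.7, 16.6 and 30.5 FPKM and ZNF85 at 2.18, 7.54, 6.49 and 13.2 FPKM, and both were higher still after knockdown, at 66.8 and 23.3 FPKM. So for these 2 genes the level was higher with more SALL4 in SNU-387 and with less SALL4 in SNU-398. Of the 49 genes, 26 ended within 2-fold of SNU-398. Leaving out SALL4 itself and small RNAs, 9 of the other 47 were at least 2-fold lower after knockdown in SNU-398, 19.1%, and 4 at least 2-fold higher. The share lower was 16.7% among the 2447 genes that remained higher in SNU-398, which were also chosen as high in the untreated library, and 7.80% of all genes. The difference between these shares was not tested.

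Of the 8 highest-ranked of the 302 genes that came closer from above, 7 encode secreted proteins. POSTN, periostin, a matrix protein of activated fibroblasts, was at 173 FPKM with the empty vector, 6.38 with SALL4A, 1.61 with SALL4B and 0.170 in SNU-398. Its distance went from -7.22 to -1.91, and SALL4B lay nearer to SNU-398 than SALL4A. SULF2, an extracellular sulfatase that edits heparan sulfate, was at 100, 7.26, 1.68 and 0.534 FPKM, and THBS2, a thrombospondin of the matrix, at 38.2, 2.48, 0.275 and 0.289 FPKM. In all 3 genes the empty vector library stood apart from the other libraries. SCG2, a granin of neuroendocrine secretory granules, was at 236, 14.9, 11.3 and 0.018 FPKM and remained 3.78 above SNU-398 despite the largest empty vector distance of the named closer genes, -7.86. KRT7, a keratin of biliary and other simple epithelia, was at 47.6, 2.13 and 0.811 FPKM and listed at 0 in SNU-398. PAEP, a secreted lipocalin, was at 18.8 and 0.412 FPKM and listed at 0 with SALL4B and in SNU-398. SERPINA3, an acute phase serine protease inhibitor, was at 16.7, 0.656 and 0.073 FPKM and listed at 0 in SNU-398. TCN1, a vitamin B12 binding protein, was at 23.6, 1.39, 0.444 and 0.061 FPKM. SALL4B was below SALL4A for all 8 named genes. Of the 302 genes, 126 ended within 2-fold of SNU-398, and 80 were listed at 0 there, where any lower level in SNU-387 counts as an approach.

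SLITRK6 and GPC6 passed SNU-398 to the other side. SLITRK6, a neuronal transmembrane protein, was at 6.36 FPKM with the empty vector, 0.108 with SALL4A, listed at 0 with SALL4B and at 1.82 in SNU-398. GPC6, a glypican, was at 16.1, 0.787, 0.604 and 2.99 FPKM. Both genes went from above SNU-398 to below it with either isoform.

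The 106 genes that moved further by rising above SNU-398 included genes that SNU-398 hardly expressed. FLG, filaggrin, a structural protein of the skin barrier, was at 9.14 FPKM with the empty vector, 62.4 with SALL4A, 123 with SALL4B and 0.121 in SNU-398, and its distance went from -3.18 to -6.31. FLG-AS1, which overlaps it on the other strand, was at 0.629, 5.91, 9.45 and 0.450 FPKM. The sources used here do not say whether counting used strand, and without strand reads of these 2 genes cannot be told apart. SAA1, an acute phase apolipoprotein, was at 0.397, 9.67, 16.3 and 0.446 FPKM, equal between the lines before SALL4 and 3.23 above SNU-398 with it. The sperm-associated genes SPANXN3 and SPANXD, which have near-identical paralogs, were at 0.345, 8.75 and 14.3 FPKM and at 4.10, 20.7 and 38.1 FPKM, both listed at 0 in SNU-398. ADAMTS3, a procollagen protease, was at 1.88, 9.82, 9.66 and 0.177 FPKM. For the first 5 of these genes the SALL4B library was the highest of the 4.

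The 55 genes that moved further by falling below SNU-398 included several that the lines shared before SALL4. EPHA3, an ephrin receptor tyrosine kinase at chr3:89107621-89482134, was at 7.34 FPKM with the empty vector, 0.031 with SALL4A, listed at 0 with SALL4B, at 10.8 in SNU-398 and at 45.1 after knockdown. The distance went from 0.51 to 3.54, and EPHA3 was lower in the library with more SALL4 in both lines. COL3A1, the type III collagen chain, was at 141, 17.2 and 8.80 FPKM and at 127 in SNU-398, with 131 after knockdown. FAP, a serine protease of activated fibroblasts, was at 39.3, 4.09 and 1.56 FPKM, at 25.6 in SNU-398 and at 61.2 after knockdown. UGT8, which makes galactosylceramide, was at 7.38, 0.906 and 1.07 FPKM, at 6.73 in SNU-398 and at 12.3 after knockdown. The long noncoding RNA genes LINC00506 and LOC101927374 were at 35.9, 6.57 and 9.30 FPKM and at 12.9, 3.32 and 3.44 FPKM, against 34.3 and 13.1 in SNU-398 and 61.4 and 29.4 after knockdown. In these 6 genes SNU-398 with high SALL4 resembled SNU-387 without it, and the overexpressing cells stood apart from both. Of the 55 genes, 34 began within 2-fold of SNU-398. After knockdown 7 of the 55 were at least 2-fold higher than in untreated SNU-398 and 7 at least 2-fold lower, 12.7% each, beside 6.37% and 7.80% of all genes without small RNAs. Among the 281 genes closer from above, small RNAs left out, 7.47% were higher and 1.42% lower. Among the 87 further above SNU-398 these shares were 8.05% and 2.30%. Differences between these shares were not tested.

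**Figure D2:**
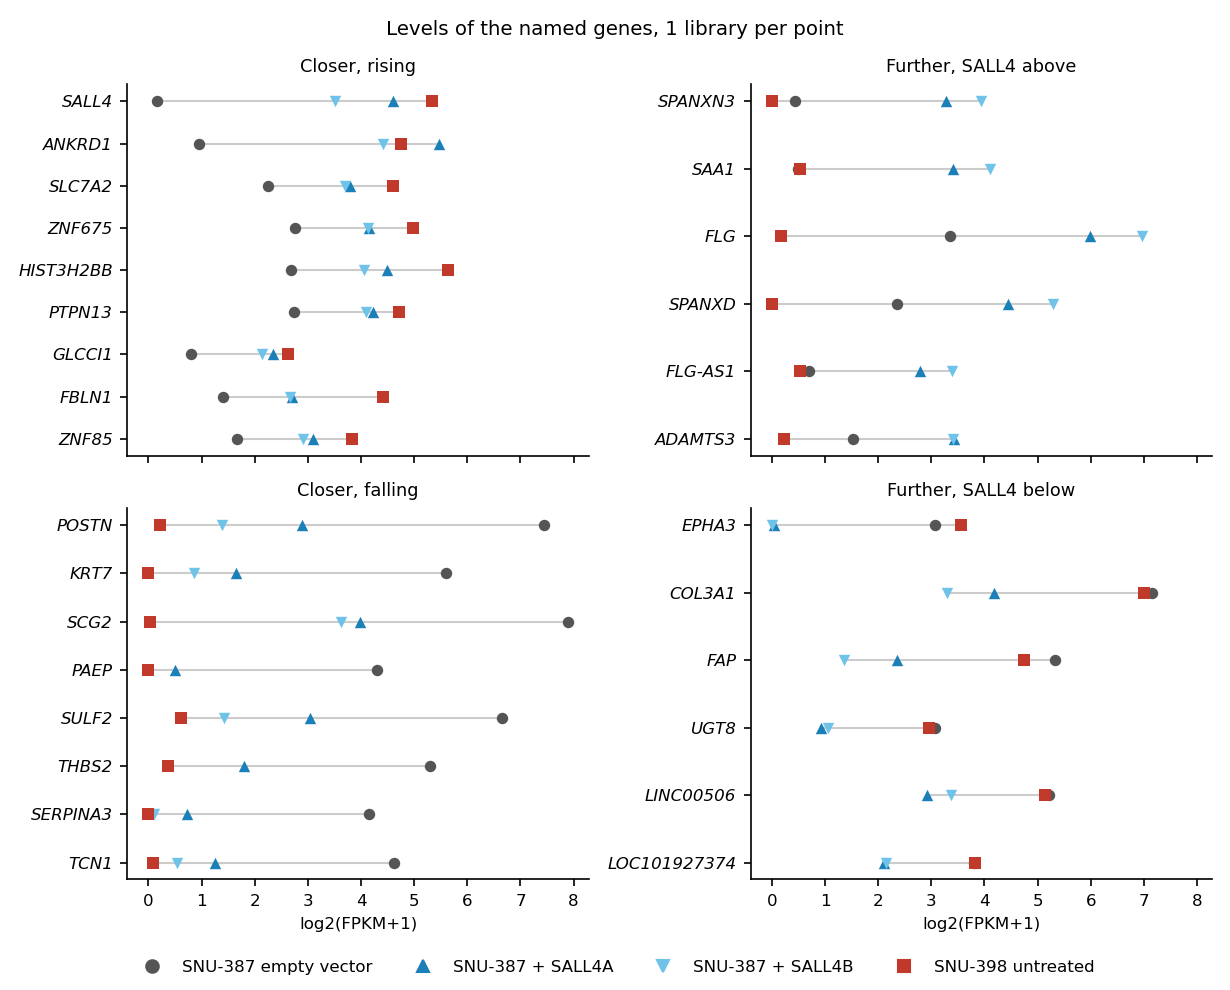
Levels of the named closer and further genes in log2(FPKM+1), 1 point per library, with grey lines spanning the 4 libraries. In the left panels the triangles of SALL4A and SALL4B lie between the empty vector circle and the SNU-398 square or beside the square; in the lower right panel the circle and square coincide or lie near each other and both triangles are to their left.

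Promoter sequence is shown for the highest-ranked gene of each closer and further group, since SALL4 is known to bind AT-rich runs. Each line holds 250 bases before and 50 bases after the start of the gene in the RefSeq table for GRCh38.p14, read 5′ to 3′ on the strand of the gene. Capitals mark AATAT or its reverse complement ATATT, which overlap when they fall within AATATT. The windows are ANKRD1 at chr10:90921038-90921337 on the minus strand, POSTN at chr13:37598719-37599018 on the minus strand, SPANXN3 at chrX:143517426-143517725 on the minus strand and EPHA3 at chr3:89107371-89107670 on the plus strand.
ANKRD1: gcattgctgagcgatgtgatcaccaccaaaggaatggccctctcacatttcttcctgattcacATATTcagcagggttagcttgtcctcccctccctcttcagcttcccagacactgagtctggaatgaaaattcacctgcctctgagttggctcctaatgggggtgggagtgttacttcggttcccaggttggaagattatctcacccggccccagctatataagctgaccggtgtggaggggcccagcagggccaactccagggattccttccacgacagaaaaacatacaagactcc
POSTN: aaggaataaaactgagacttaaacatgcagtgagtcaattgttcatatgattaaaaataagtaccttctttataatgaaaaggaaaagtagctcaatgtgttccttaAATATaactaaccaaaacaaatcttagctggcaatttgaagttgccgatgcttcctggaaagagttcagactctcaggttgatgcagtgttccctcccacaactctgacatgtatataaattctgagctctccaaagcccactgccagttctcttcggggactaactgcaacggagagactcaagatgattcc
SPANXN3: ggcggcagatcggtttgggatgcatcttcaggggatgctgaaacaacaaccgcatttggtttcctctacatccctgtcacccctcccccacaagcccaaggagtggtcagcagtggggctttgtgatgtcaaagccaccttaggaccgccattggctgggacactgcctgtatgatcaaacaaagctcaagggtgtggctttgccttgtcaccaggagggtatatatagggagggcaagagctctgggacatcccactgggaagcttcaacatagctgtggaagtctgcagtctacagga
EPHA3: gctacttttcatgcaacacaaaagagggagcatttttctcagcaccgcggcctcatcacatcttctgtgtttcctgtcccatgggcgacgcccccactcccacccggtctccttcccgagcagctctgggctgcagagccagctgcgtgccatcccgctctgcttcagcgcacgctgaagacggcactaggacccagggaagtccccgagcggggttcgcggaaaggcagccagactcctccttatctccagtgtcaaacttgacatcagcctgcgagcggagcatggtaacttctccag
ANKRD1 and POSTN had 1 match each, and SPANXN3 and EPHA3 had none in these windows. The motif was in 16.7% of the 30 promoters found for genes closer from below, 19.4% of 180 for genes closer from above, 18.6% of 59 for genes further above and 24.2% of 33 for genes further below. It was in 11.7% of promoters of genes remaining higher in SNU-398, 13.4% of those remaining lower, 12.3% of the 10076 promoters of all genes compared and 23.6% of all 27305 promoters in the table. A match is a run of letters and not a site of binding, and base composition of the promoter groups was not compared.

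Gene lists of pathways and cell types, chosen with earlier results of these data known, place these genes by function. The count of closer genes in each list is to be read beside 2.45% over all genes and 5.57% of those that began 2-fold apart. Counts of remaining genes are to be read beside 30.1% over all genes, 17.2% higher and 12.9% lower in SNU-398. Lists differ in how many members began 2-fold apart, so a list far from SNU-398 had more genes that could come closer. Collagens had the most, 14 of 26 genes, all of them high in empty vector cells and lower with SALL4. The median collagen distance was -2.74 with the empty vector, -2.22 with SALL4A and -0.86 with SALL4B. COL1A2, a chain of type I collagen, was at 326 FPKM with the empty vector, 83.2 with SALL4A, 8.5 with SALL4B and 0.695 in SNU-398, and COL6A3 of type VI was at 313, 115, 7.07 and 0.438 FPKM. Both chains were lower with SALL4B than with SALL4A, as were COL8A1, at 101, 19.4 and 4.61 FPKM, and COL15A1, at 81.4, 15.0 and 3.92 FPKM, which were listed at 0 in SNU-398. COL5A2 ended level with SNU-398, at 175, 73.4, 62.9 and 61.2 FPKM. Its partner COL5A1 remained the most distant, at 152, 75.6, 86.7 and 0.068 FPKM. The basement membrane chain COL4A1 differed by isoform, at 73.5 FPKM with the empty vector, 108 with SALL4A, 10.8 with SALL4B and 3.77 in SNU-398. COL3A1, described above, was the only collagen of the 26 that moved further.

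**Figure D3:**
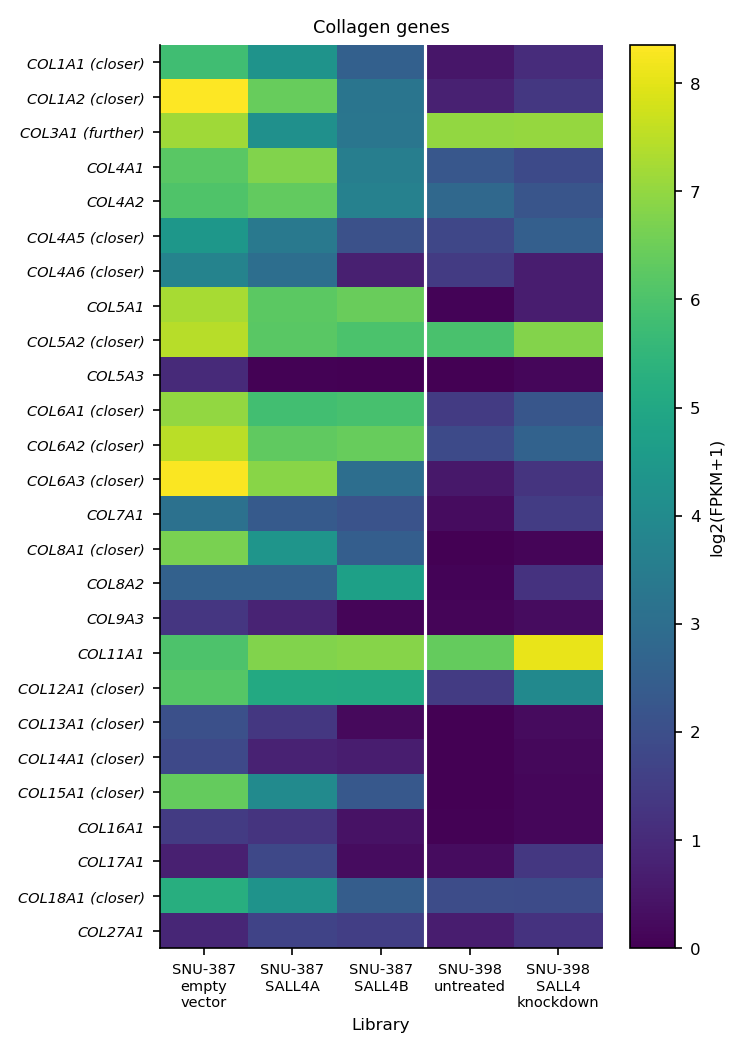
Levels of the 26 collagen genes in log2(FPKM+1), 1 column per library, with the class of each closer or further gene beside its name. The 14 closer genes darken from the empty vector column to the SALL4A and SALL4B columns, and COL3A1 is darkest in SALL4A and SALL4B.

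Matrix glycoproteins and crosslinking enzymes had 9 closer genes of 26, 8 from above and FBLN1 from below, and 10 that remained lower in SNU-398. FN1, fibronectin, was at 918 FPKM with the empty vector, 247 with SALL4A, 234 with SALL4B and 8.56 in SNU-398, so it came closer by 1.93 and remained 4.66 above. TNC, tenascin C, was at 209, 59.0, 56.8 and 0.062 FPKM, and EFEMP1 at 212, 121, 18.7 and 0.240 FPKM. These genes approached SNU-398 without reaching it. SPARC, a collagen-binding matricellular protein, stayed at 599, 323 and 422 FPKM against 0.088 in SNU-398, a distance of -8.41. Integrin and laminin subunits had 5 closer genes of 25. LAMA4, a laminin chain, was at 41.9, 4.97, 0.328 and 0.197 FPKM, and ITGA11, a collagen receptor, at 42.5, 10.2, 1.94 and 0.009 FPKM. ITGA3, an integrin subunit that pairs to bind laminin, remained apart at 164, 106, 94.6 and 0.910 FPKM.

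Interferon-stimulated genes had 8 closer members of 32, all lower with SALL4, and 15 that remained apart, beside 30.1% of all genes. Their median distance was -2.41 with the empty vector, -1.33 with SALL4A and -1.42 with SALL4B. IFITM1, a membrane protein that blocks virus entry, was at 11.8 FPKM with the empty vector, 1.5 with SALL4A, 0.185 with SALL4B and 0.151 in SNU-398. IFI27 was at 20.7, 5.14, 3.28 and 0.721 FPKM. IFITM3, a relative of IFITM1, stayed at 76.3, 62.3, 45.8 and 0.250 FPKM, and XAF1 at 25.1, 17.4, 23.7 and 0.013 FPKM. IFIH1, a sensor of double-stranded RNA, went the other way, higher in SNU-398 at 87.5 FPKM than in SNU-387 at 13.6, 5.50 and 7.39 FPKM. Antigen presentation genes had 2 closer members of 17, CD74, the invariant chain, at 13.7, 3.87, 2.0 and 0.337 FPKM, and HLA-F at 12.3, 2.26, 5.40 and 1.58 FPKM. The immunoproteasome subunit PSMB8 remained apart, at 64.2, 44.4, 40.8 and 0.060 FPKM. Chemokines and interleukins moved in both directions. CCL2, a monocyte attractant, was at 45.9, 6.76, 0.527 and 0.359 FPKM and CXCL12 at 64.3, 9.27, 2.70 and 0.106 FPKM, both closer, as were IL1B and CSF2. IL32, at 28.7, 56.9, 97.4 and 0.059 FPKM, and CXCL8, at 7.62, 9.92 and 28.4 FPKM and listed at 0 in SNU-398, were further.

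**Figure D4:**
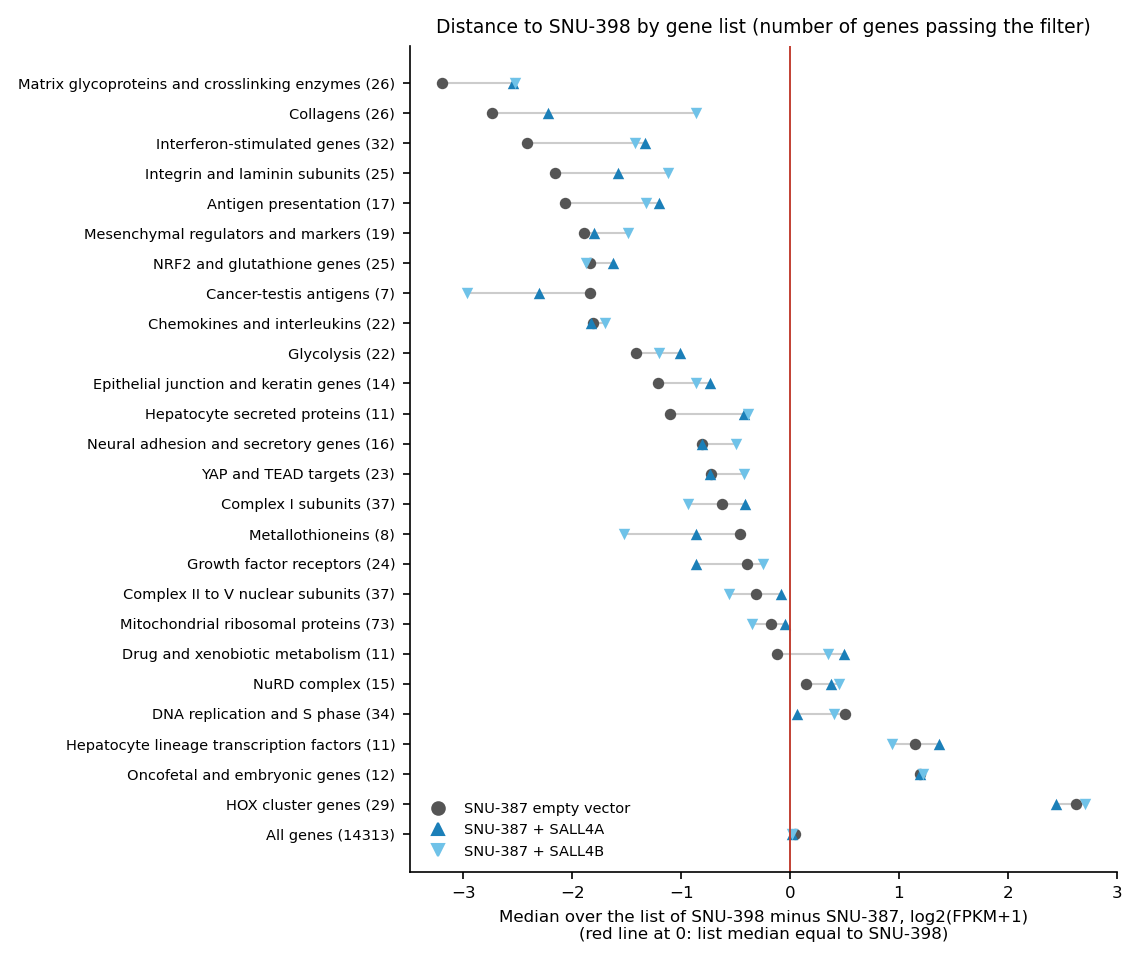
Median distance to SNU-398 of each gene list, in log2(FPKM+1), with the number of genes in brackets; circles are the empty vector library and triangles SALL4A and SALL4B, and the red line at 0 is SNU-398. Collagens moved from -2.74 to -2.22 and -0.86, interferon-stimulated genes from -2.41 to -1.33 and -1.42, and HOX genes stayed above 2.

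The largest remaining differences were in genes that 1 line hardly expressed. CCND2, cyclin D2, a driver of the G1 phase, was at 0.171, 0.050 and 0.609 FPKM in the SNU-387 libraries and at 178 in SNU-398, and its distance was 7.25 with the empty vector and 7.10 with SALL4. KIF1A, a kinesin of axonal transport, was at 84.0 FPKM in SNU-398, UCHL1, a ubiquitin hydrolase of neurons, at 97.0, NCAM2, a neural adhesion molecule, at 54.2 and MMP10, a matrix metalloprotease, at 67.9, and none of the 4 reached 1 FPKM in any SNU-387 library. ANKRD30A, NBEAP1 and LINC00221 completed the 8 largest. CCND2 and MMP10 were lower after knockdown in SNU-398, at 55.6 and 6.02 FPKM, while UCHL1 was at 110 FPKM. Remaining genes higher in SNU-398 numbered 2460, 17.2% of all genes, and 1844 remained lower, 12.9%. Of all 4304, 645 were at least 8-fold apart in all 3 SNU-387 libraries.

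In the lower direction the largest remaining differences were in abundant transcripts of SNU-387. S100A6, a calcium binding protein, was at 625, 296 and 513 FPKM and listed at 0 in SNU-398. LDHB, a lactate dehydrogenase subunit, was at 259, 286, 360 and 0.037 FPKM. The keratin pair of simple epithelia stayed high in SNU-387, KRT8 at 350, 316 and 199 FPKM and KRT18 at 318, 328 and 185 FPKM, against 0.579 and 0.034 in SNU-398. CHI3L1, a secreted chitinase-like protein, was at 402, 213, 441 and 0.051 FPKM, and the linker histone gene HIST1H1D at 168, 161, 154 and 0.068 FPKM. FTL, the ferritin light chain, was at 534, 384, 579 and 2.21 FPKM. It has many pseudogene copies, among which the counting may divide its reads. From the isoform mean none of these genes moved by 1 or more, and S100A6 moved by 1.08 with SALL4A alone.

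HOX genes, which encode position along the body axis, were low in SNU-387 with and without SALL4. Of the 29 that reached 1 FPKM, 24 did so only in SNU-398, so the filter fixed their direction, beside 1630 of all genes, 11.4%. The other 5 were higher in SNU-398 too, and all 29 were at least 2-fold higher there than with each isoform. Of the 29, 28 were in the remaining class, which also asks that the distance change by less than 1, beside 30.1% of all genes. With every SNU-387 library under 1 FPKM, the distance of the 24 could not change by 1 or more. The filter thus bears on the class as well as the direction, and the class counts here and by cluster are not read as a result. Their median distance was 2.63 with the empty vector and 2.65 with the isoform mean. HOXC10 was at 49.8 FPKM and HOXC9 at 48.1 in SNU-398, and both were listed at 0 with the empty vector and under 0.1 FPKM with either isoform. HOXD10, at 3.84, 3.81, 0.952 and 31.5 FPKM, was the HOX gene with the highest level in the empty vector cells. HOXB3, at 2.47, 1.27, 0.272 and 7.30 FPKM, was the only HOX gene that moved further. By cluster, 8 of 8 HOXA, 8 of 9 HOXB, 6 of 6 HOXC and 6 of 6 HOXD genes were in the remaining class. The HOXB gene outside it was HOXB3, whose distance grew. These genes share clusters and are not independent of each other.

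**Figure D5:**
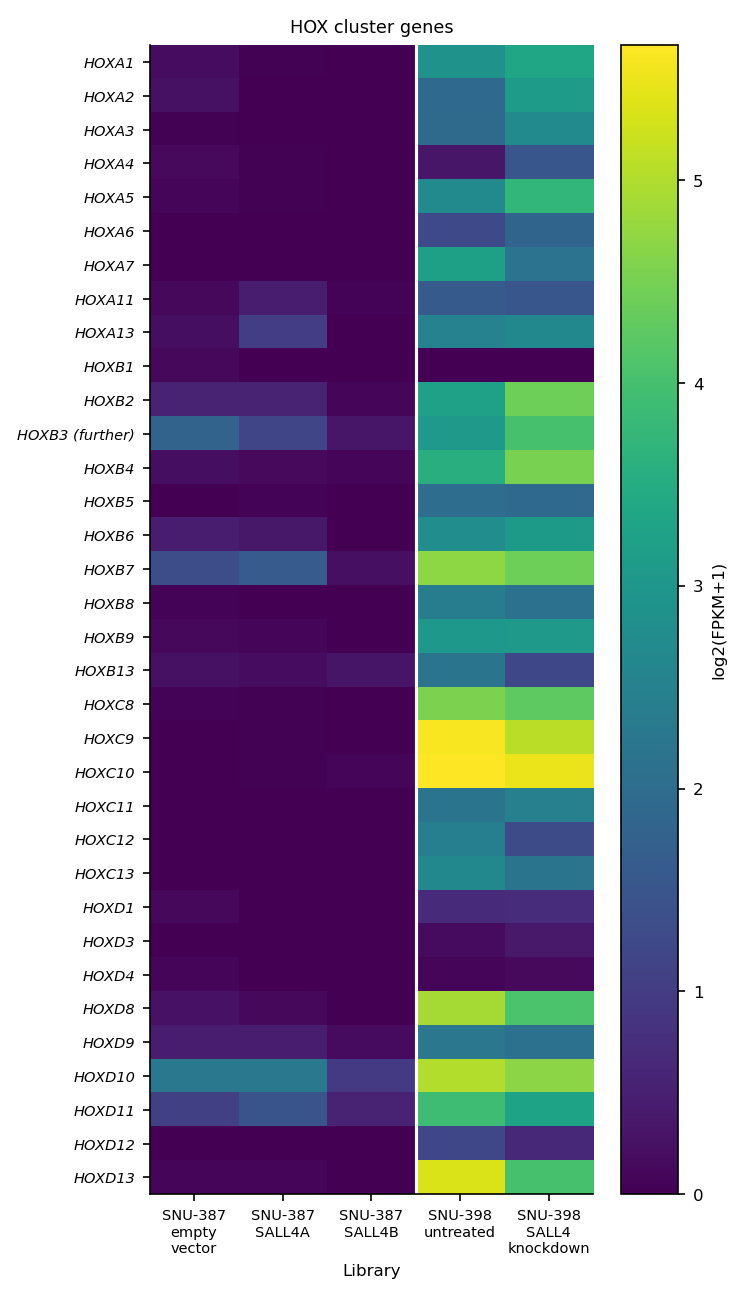
Levels of the 34 HOX genes with a row of their own in log2(FPKM+1), 1 column per library, ordered by cluster and number. The 3 SNU-387 columns are dark throughout apart from some values of HOXA13, HOXB3, HOXB7, HOXD10 and HOXD11, and the untreated SNU-398 column is brighter for all 29 that reached 1 FPKM, up to HOXC10 at 49.8 FPKM.

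Of 11 hepatocyte lineage transcription factors none was closer and none further, a number too small to read against 2.45%. In this list 8 remained apart, beside 30.1% of all genes, and 4 of the 11 reached 1 FPKM only in SNU-398. FOXA1, a pioneer factor of the liver, was listed at 0 with the empty vector and was at 0.012, 0.033 and 6.53 FPKM in the other libraries, and CEBPA, GATA4, ONECUT2 and HHEX also remained higher in SNU-398, while GATA6, CEBPB and XBP1 remained lower. Among mesenchymal genes, TWIST1 was at 0.051, 0.208, 0.069 and 42.6 FPKM, and VIM and ZEB2 were higher in SNU-398. ZEB1, at 31.2, 29.3, 37.9 and 1.30 FPKM, SNAI2 and CDH11 were lower there. None of these 6 genes was closer or further, but they do not show the balance of the list. By the 2-fold rule and the isoform mean, SNU-398 was lower for 13 of its 19 genes and higher for 6. Over all genes it was lower for 19.8% and higher for 22%. The list held 2 closer and 2 further genes, and 13 remained apart, beside 30.1% of all genes. Among oncofetal genes LIN28B, which blocks let-7 processing, was at 0.262 and 0.089 FPKM, listed at 0 with SALL4B and at 17.3 in SNU-398, and GPC3, IGF2BP1 and HMGA2 likewise remained higher in SNU-398. CD24 remained lower, at 214, 205, 437 and 2.46 FPKM, and PROM1, the CD133 antigen, moved further at 0.488, 3.41, 6.42 and 0.012 FPKM. The SALL4 relatives SALL1 and SALL2 were at 7.36 and 13.1 FPKM in SNU-398 and did not reach 0.2 FPKM in any SNU-387 library.

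The 74 nuclear genes for oxidative phosphorylation, the pathway in the title of the series, held no closer and no further gene. Over all genes these classes hold 2.45% and 1.12%, so their absence among 74 genes is not read as a result. Within 2-fold of SNU-398 before and with SALL4 were 23 of 37 complex I genes and 30 of 37 of complexes II to V. Over all genes 7235 of 14313 were. Of the 74 genes 7 remained apart, 9.46% beside 30.1% of all genes. The median distance of the 74 was -0.42 with the empty vector, -0.25 with SALL4A and -0.68 with SALL4B, so the isoforms lay on opposite sides of the empty vector value. NDUFS8, a complex I subunit, was at 151, 117, 138 and 36.7 FPKM, and ATP5D, an ATP synthase subunit, at 12.4, 14.1, 17.5 and 65.6 FPKM, opposite in direction between the lines. The median over the 37 complex I subunits was -0.56 from the isoform mean as deposited, -0.27 with equal upper quartiles and -0.22 with equal totals, negative in each. That over complexes II to V was -0.32, -0.03 and 0.02 in the same order, and that over the 73 mitochondrial ribosomal proteins was -0.14, 0.16 and 0.20, so the direction of these 2 lists does not hold across scalings. Short transcripts leaned the same way, with a median distance of -0.15 in the shortest and 0.13 in the longest of 5 equal groups of all genes by length. The part of length in the value of the 74 genes was not tested. Glycolysis genes also held none of either class among 22, with 11 remaining apart, LDHB and the lactate exporter SLC16A3 the furthest. The 34 DNA replication genes and the 15 NuRD genes held none of either class, and CHD5, a NuRD helicase of neurons, was at 0.041, 0.083, 0.099 and 15.6 FPKM. These lists and the glycolysis list are too small for such an absence to be read against the shares over all genes.

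Signalling lists divided between approach and departure. Among 23 YAP and TEAD genes ANKRD1 and FJX1 were closer, whereas CYR61, at 43.9, 92.6, 96.5 and 14.2 FPKM, AMOTL2, AMOTL1 and TEAD2 were further, the former pair above SNU-398 and the latter pair below it. CYR61 and AMOTL2 were thus higher in both isoform libraries, as ANKRD1 was, but away from SNU-398. Among 25 NRF2 and glutathione genes AKR1B10, an aldo-keto reductase, was closer at 102, 25.8 and 49.8 FPKM and listed at 0 in SNU-398, ABCC2 was closer, GSTA1 and GSTA4 were further, and 15 including NQO1 remained apart. EPHA3 was the only growth factor receptor of 24 to change class, and MET remained lower in SNU-398 at 69.0, 70.2, 63.8 and 0.114 FPKM. Among 16 neural genes SCG2, L1CAM, SCG5 and BEX1 were closer, and NCAM1, a neural adhesion molecule, passed from 2.55 to 30.9 and 25.8 FPKM, above the 4.73 FPKM of SNU-398. Among hepatocyte secreted proteins APOE, at 27.3, 1.90, 6.62 and 1.30 FPKM, and TF, transferrin, were closer, and APOA1, at 0.308, 0.731, 14.9 and 0.288 FPKM, VTN and APOC1 were further. The APOA1 call rests on SALL4B.

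The isoforms taken singly gave 371 closer genes with SALL4A and 520 with SALL4B, 203 of them shared, which is a share of 54.7% and 39.0%. Further genes numbered 225 and 335, with 84 shared, 37.3% and 25.1%. SALL4B is the shallowest of the 4 libraries, and the part of depth in its larger counts was not tested.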

How the data were processed

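RNA of 5 cultures of established human liver cancer lines was purified on RNeasy columns and made into ScriptSeq Complete Gold libraries, per the labels' protocols, and sequenced. The deposited values are FPKM per gene, fragments per kilobase of transcript and M mapped fragments, computed by the authors. Cufflinks, Cuffdiff, TopHat2 and SAMtools were used, with GRCh38 or hg38 as the build and versions unstated, per the submitters' processing notes. Annotation, strand setting and between-library normalization: not given in the sources used here.

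From 26032 rows, 17 without a symbol were dropped, rows sharing 1 of 450 symbols were summed, and 24544 symbols were left. Values were taken as log2(FPKM+1), genes needed 1 FPKM in at least 1 of the 4 libraries compared, and the isoforms were averaged on the log scale (Python 3.11.15, pandas 2.3.3, numpy 2.4.6). Groups follow the sample titles. With 1 library per group no test was possible, so a log2 change of 1 was used as a rule of size. The classification was tested on simulated data. Depth was estimated from the steps of low FPKM values and covers counting error only.

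The comparison, its members and the gene lists were chosen with earlier results of these data known. The genes named are SALL4, then, among genes at 5 FPKM or more in some library and leaving out small RNAs and joined symbols, the 8 with the largest approach in each direction, the 6 with the largest departure in each direction, both ranked by the smaller change of the 2 isoforms, the 8 largest remaining differences in each direction, up to 4 that crossed, and in each list the 2 most distant and the 2 most changed members. A gene that this rule picks is not reported here. Other list members are named where a class holds few of them, chosen after their values were seen. Lists of zinc finger, histone, small RNA and complement genes were added after seeing the data. Promoters come from RefSeq on GRCh38.p14 and loci from GENCODE release 29 or RefSeq on GRCh38. Alternatives changed the pseudocount, the filter, the scaling, the small RNAs, the averaging, the isoform used and the SNU-398 library.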

Additional observations from a re-analysis of the deposited data

Results flagged for a closer look

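DIO2 and FOLR1 are the 2 genes, small RNAs aside, for which the isoforms lay on opposite sides of the empty vector in their distance to SNU-398 by 1 or more each. DIO2, the deiodinase that activates thyroid hormone, was at 7.95 FPKM with the empty vector, 26.8 with SALL4A, 1.93 with SALL4B and 0.08 in SNU-398, so its distance grew by 1.63 with SALL4A and changed by -1.61 with SALL4B. FOLR1, a folate receptor, was at 22.8, 10.4 and 56.3 FPKM and listed at 0 in SNU-398, so its distance changed by -1.06 with SALL4A and grew by 1.27 with SALL4B. With 1 library per isoform the difference between the isoforms was not tested for either gene.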

How the results depend on the processing

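The 351 closer, 161 further and 4304 remaining genes and the counts in 4 lists were recomputed under 11 alternatives. A pseudocount of 0.1 FPKM gave 667 closer and 557 further genes. One of 5 FPKM gave 156 closer, 57 further, 2331 remaining, 1417 higher and 1814 lower in SNU-398, 2 closer interferon-stimulated genes and 16 remaining HOX genes, and a filter at 5 FPKM also left 16 HOX genes, fewer being above it. SALL4B alone gave 335 further genes and 14 closer matrix genes. The other list and whole-class counts stayed within 1.5 times. By direction, equal upper quartiles gave 32 closer from below (49 as reported), 66 further above (106) and 90 further below (55), a pseudocount of 0.1 FPKM gave 241, 201 and 356, one of 5 FPKM gave 13, 45 and 12 with 143 closer from above (302), SALL4A alone gave 172 further above, and SALL4B alone gave 95, 228 and 107. Of 517 values of 47 named genes, 516 kept their direction. With the knockdown library in place of untreated SNU-398, ANKRD1 moved further by 2.13 instead of closer by 3.61, since its level there is 2.69 FPKM. Direction is a weak check, because the genes were named for large values. Changing the filter or leaving out small RNAs also cannot alter the value of a named gene. With a pseudocount of 5 FPKM the distance of SLC7A2, GLCCI1, FBLN1 and ZNF85 changed by -0.99, -0.61, -0.65 and -0.74. That of UGT8 grew by 0.89, so these 5 genes fell under the cut of 1. Of the 351 closer genes, 330 were shared with equal upper quartiles, 328 with equal totals and 304 with the knockdown library as SNU-398. Of the 161 further genes 121 were shared with equal upper quartiles and 132 with the knockdown library, and of the 4304 remaining, 3844 and 3173. No paired analysis was possible because each group has 1 library. Levels under about 1 FPKM are imprecise, most of all in the knockdown library and SALL4B, the shallowest.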

Other observations

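Of 44 genes compared in a zinc finger cluster on chromosome 19, from TSSK6 to ZNF254, 42 were higher in SNU-398 than in empty vector cells. The median distance was 1.80, beside 0.04 over all genes. Some of the 44, such as ZNF90, ZNF257, ZNF98 and ZNF681, stayed under 1 FPKM in every SNU-387 library. The filter fixed the direction of such genes, which are 11.4% of all genes compared. With SALL4 the median of the 44 was 1.26, 27 were higher with both isoforms than with the empty vector, and 4 were lower with both. The matching shares over all genes were not computed. The 6 that came closer, ZNF85, ZNF430, ZNF714, ZNF675, ZNF726 and ZNF254, lay in 2 runs, chr19:20923251-21125094 and chr19:23652801-24129968. ZNF714 was at 4.15 FPKM with the empty vector, 12.3 with SALL4A, 8.31 with SALL4B and 28.1 in SNU-398, and ZNF254 was at 1.66, 3.88, 7.61 and 12.2 FPKM. All 6 were also higher after knockdown in SNU-398, ZNF714 at 41.7 and ZNF254 at 27.3 FPKM. This was not particular to the closer genes, since all of the 44 but LINC00663, ZNF486 and LINC00664 were higher after knockdown. The share of all genes higher after knockdown was not computed. Their median log2 change, small RNAs left out, was -0.016. Others in the cluster remained apart, such as ZNF90 at 0.216, 0.286, 0.466 and 20.5 FPKM. Among 453 ZNF genes, 7 of 224 on chromosome 19 and 1 of 229 elsewhere came closer, beside 2.45% of all genes. The 6 genes above are among the 7. The region was chosen after its values were seen, so this contrast between chromosomes is not separate from that choice. Reads of related genes may be divided among them.

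Complement genes, a list added after their values were seen, held 8 closer members of 17, all lower with SALL4. The shares are 2.45% over all genes and 5.57% of those that began 2-fold apart. The median empty vector distance of the 17 was -2.45, so this list had many genes that could come closer. From the isoform mean 12 of the 17 were still at least 2-fold lower in SNU-398. C1S was at a distance of -7.09 with the empty vector and -5.28 with SALL4, C1R at -6.34 and -3.49, CFB at -5.20 and -2.07, and C3 at -6.09 and -4.95. C1S, C1R and C1RL neighbour each other at chr12:6946577-7109214 in a run with PTPN6, 4 closer genes of 7 compared there. The natural killer receptor genes KLRD1, KLRC3 and KLRC2 at chr12:10238961-10436010 were all 3 of those compared there and all closer from above. Both runs are among several found by scanning the closer genes. Closer genes set the ends of each run, so the counts within them are no measure of clustering. Reads of related genes may be divided here too.

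EPHA3, LINC00506 and LOC101927374, named above for moving below SNU-398, lie within 12 genes compared on chromosome 3 from ROBO1 to PROS1. Their neighbours CHMP2B, at 35.5, 32.2 and 46.3 FPKM in the SNU-387 libraries, and CGGBP1, at 44.3, 48.7 and 43.7 FPKM, showed no such difference, whereas CADM2, at 0.478 and 0.018 FPKM and listed at 0 with SALL4B, and PROS1, at 5.44, 2.60 and 4.74 FPKM, were lower with both isoforms. Of the 12 genes 5 were lower with both and 2 higher with both.

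Over the 60 largest remaining differences lower in SNU-398, the untreated library had a median of 0.102% of the mean SNU-387 level and the knockdown library 1.19%, with quartiles of 0.736% and 1.67%. SPARC was at 0.088 FPKM untreated and 5.23 after knockdown, LDHB at 0.037 and 5.08, and KRT18 at 0.034 and 3.53. The reason was not tested, and these genes were chosen for low values in the untreated library.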
